A study of Mus musculus with 36 samples.

Results

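The comparison set 3 arrays of mouse heart in which an active form of the kinase MKK7 had been switched on for weeks against 4 arrays of control heart, from the same breeding, in which the signal of the Cre driver was low. It used 7 of the 36 arrays of the series. All 3 arrays titled MKK7D transgenic, late, entered. Of the 6 arrays titled MKK7D control, early or late, the 4 entered whose Esr1 probe set read under 10000. That probe set also sees the RNA of the tamoxifen-inducible driver, Mer-Cre-Mer, which joins Cre recombinase to mutated pieces of the estrogen receptor. The 4 controls were early replicates 1, 2 and 3 and late replicate 10, and late control replicates 8 and 9 were left out. The controls were thus chosen by a measured value, and every p-value below takes that choice as given.

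The study measured left ventricular RNA on an Affymetrix Mouse Genome 430 2.0 array. Mice had a C57black background, and all 7 arrays were labelled female. The MKK7D transgene sat behind a floxed segment and the cardiac alpha myosin heavy chain promoter. The transgenic mice also carried Mer-Cre-Mer under the same promoter, whereas the controls were labelled as littermates without transgenes. At 12 weeks of age both kinds were given tamoxifen into the abdomen, 20 mg/kg daily on 3 days, so every group shares the drug. Early hearts were taken 4 to 7 days after the first dose and late hearts 2 to 4 weeks after it. The MKK7D transgene and the driver came together, and their parts in a difference cannot be told apart here. Of the 4 controls, 3 were early and 1 was late, so a difference of time is mixed into the comparison except against late control replicate 10. The labels do not say that each array was a separate animal, so the spread behind each p-value is that between arrays and may be technical.

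Esr1 chose the arrays, and its values are given with no test. Its probe set read 7288, 3506, 294 and 953 in early controls 1, 2 and 3 and late control 10, and 109949, 88303 and 105983 in late transgenic replicates 13, 14 and 15. Just inside the limit lay 7288 and just outside it 91291, in late control replicate 9; late control replicate 8 read 106402. The 3 early MKK7D transgenic arrays read 132729 to 143792, and the 6 controls shared by the other lines 294 to 7943. Early control replicate 1 had the female transcript Xist at 2316 and the male transcript Eif2s3y at 6018, against its label. Xist in late transgenic arrays was 25461 to 29710.0.

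The arrays were of like quality in most measures. The 3 prime to 5 prime signal ratio of Gapdh was 0.827 to 0.869 in late transgenic arrays and 0.798 to 0.870 in the controls. That of beta-actin was 1.12 to 1.18 and 1.07 to 1.22. Of all signal, 6.14% to 6.86% came from the 100 brightest probe sets in transgenic arrays and 6.93% to 8.26% in controls, and these ranges do not overlap. Correlations over the genes tested were 0.964 to 0.974 among the 4 controls, 0.970 to 0.978 among the transgenic arrays and 0.943 to 0.967 between them. The left-out controls correlated at 0.969 to 0.975 with the late transgenic arrays and at 0.936 to 0.965 with the 4 controls. Cardiomyocyte genes were bright in every array: troponin T (Tnnt2) read 135355 to 172302 in controls and 112432 to 126595 in transgenic arrays.

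MKK7 is a kinase that phosphorylates and activates JNK, one of the stress-activated MAP kinases. JNK in turn phosphorylates Jun and other subunits of the transcription factor AP-1, and dual specificity phosphatases switch it off. In heart muscle JNK responds to stretch, ischaemia and cytokines, and its activation has been tied to loss of gap junction proteins, matrix build-up and failure. MKK7D, in which the activating sites are replaced by acidic residues, drives this arm without an upstream signal.

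Late MKK7D hearts had higher levels of transcripts for matrix, TGF-beta and immediate early genes, and lower levels of those for fuel oxidation, ion channels and mitochondria. Of 12625 genes tested with limma on log2(signal + 32), 1522 were called at an adjusted p under 0.05 (12.1%), 722 higher (5.72%) and 800 lower (6.34%). Of these, 336 changed at least 2-fold (2.66%), 238 higher (1.89%) and 98 lower (0.776%), so the larger changes lay mostly upward. The median change over all genes was 0.02 on the log2 scale. At an unadjusted p under 0.05 there were 3381 genes (26.8%). Groups did not overlap in 3145 genes (24.9%; 12.5% higher and 12.4% lower), and in 1503 of the 1522 called.

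These counts rest on which controls enter. With all 6 MKK7D controls as labelled no gene was called by limma, and 1178 had an unadjusted p under 0.05. Against the 3 late controls as labelled none was called either, and 686 had an unadjusted p under 0.05. Against late control replicate 10 alone, which matches in time, 362 genes were called (213 higher, 149 lower), of which 281 were among the 1522; that single array was assumed to vary as the others do. Against the 3 early controls alone 1329 were called, 1175 of them shared. Without early control replicate 1, whose Xist and Eif2s3y go against its label, there were 1059 calls, 1017 of them shared. Without early control replicate 2 there were 1983 calls and without replicate 3 there were 967. Without transgenic replicate 13, 14 or 15 there were 708, 805 and 691. A fit over all 36 arrays made 572 calls, 526 of them among the 1522. Early control replicate 2 lay nearest to the transgenic arrays: it was the highest of the 4 controls in 456 of the 722 genes called higher (63.2%, against 24.6% of all genes) and the lowest in 501 of the 800 called lower (62.6%, against 28.7%).

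**Figure D1:**
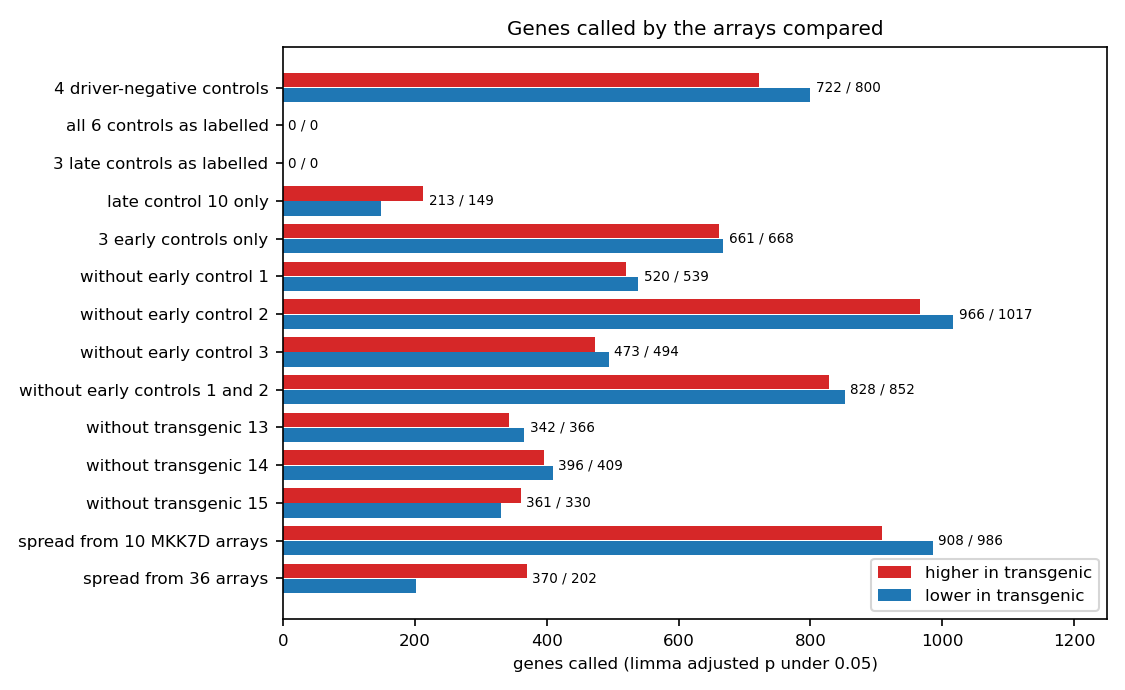
Number of genes called higher (red) and lower (blue) in late MKK7D transgenic arrays (x axis) for each set of arrays compared or used for the spread (y axis), with both counts printed beside each pair of bars. The 4 driver-negative controls gave 722 and 800 calls, whereas all 6 controls as labelled and the 3 late controls as labelled gave 0.

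Below, signals are printed in the order of early control 1, 2 and 3 and late control 10, then of transgenic 13, 14 and 15. Each count of list members called is to be set beside the shares over all genes, 5.72% higher and 6.34% lower. The genes given as the largest rises and falls were picked among called genes whose groups did not overlap. Their separation was thus set by that choice. Atf4, Atp2a1, Atp2a2, Bmp6, Col1a1, Col1a2, Comp, Cpt1a, Csf1r, Hspa5, Kcnip2, Myl1, Myl7, Pdgfra, Ppara, Ppargc1a, Sln, Smad2, Smad3, Smad4, Tcf21, Tgfb1 and tenascin C (Tnc) lie outside the rule for named genes and were chosen after their values were seen. Mfap4, a protein of elastic microfibrils, read 139.8, 1443, 254 and 65.1 in the controls and 9979, 2849 and 8589 in the transgenic arrays. Mfap4 differed 21.7-fold (log2 change 4.44, SE 0.80, limma adjusted p = 0.00776). Early control 2 stood above its fellow controls but below every transgenic array. Chodl, a membrane protein of the lectin type, read 177, 454, 91.5 and 282 against 2903, 5345 and 3697, a 15.5-fold difference (log2 change 3.96, SE 0.42, limma adjusted p = 0.00186). The lowest transgenic array lay far above early control 2, the highest control. Tnmd, tenomodulin, a marker of tendon cells, read 418, 582, 392 and 293 against 2324, 4253 and 3584 (log2 change 2.91, SE 0.27, limma adjusted p = 0.0016). In Tnmd the 4 controls were close together and the transgenic arrays all lay above them.

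The other genes with the largest rises were Syndig1, Adamts8, Plcxd2, Tgfb2, Egr3, Gli2, Nmrk2, Thbs4 and P3h2. Syndig1, a synaptic membrane protein, read 102, 1422, 82.8 and 81.8 against 3909.7, 5024 and 4147 (log2 change 4.28, SE 0.78, limma adjusted p = 0.00804), with early control 2 far above the other controls and below every transgenic array. Plcxd2 read 406, 243, 161 and 124 against 2748, 1549 and 3405 (log2 change 3.33, SE 0.39, limma adjusted p = 0.00245). P3h2, which hydroxylates proline in collagen, read 1403, 4863, 651 and 1419.8 against 7875, 13691 and 13348 (log2 change 2.80, SE 0.52, limma adjusted p = 0.00901). Adamts8, a secreted protease, read 581, 782, 863 and 58.1 against 5748, 2787 and 6829 (log2 change 3.43, SE 0.71, limma adjusted p = 0.0134), and late control 10 lay far below the other controls. The call of Adamts8 ended without transgenic replicate 13 (adjusted p = 0.0558) or 15 (0.0633). Gli2, a transcription factor of hedgehog signalling, read 48.3, 864, 61.1 and 451 against 1629.5, 1731 and 1705 (log2 change 2.85, SE 0.76, limma adjusted p = 0.0365). Its call ended without early control 1 (0.0762) or 3 (0.087) and without transgenic replicate 13 (0.105), 14 (0.101) or 15 (0.111).

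Among the largest falls, Mylk4, a kinase of the myosin light chain kinase family, read 38749.9, 28547, 47071 and 28699.5 in controls and 11114, 7468 and 10813 in transgenic arrays, 3.62-fold lower (log2 change -1.85, SE 0.20, limma adjusted p = 0.00186). Car14, a carbonic anhydrase of the muscle membrane, read 26201, 19016, 32829 and 22691 against 8365, 7749.6 and 6453 (log2 change -1.72, SE 0.17, limma adjusted p = 0.00174). In both genes every transgenic array lay well under the lowest control. Acot1, a cytosolic acyl-CoA thioesterase, read 1514, 1434, 1722 and 2480.2 against 306, 402 and 532 (log2 change -2.03, SE 0.25, limma adjusted p = 0.00246). Fbp2, the muscle fructose bisphosphatase, read 5547, 2666, 4797 and 4870.1 against 672, 895 and 1662 (log2 change -2.07, SE 0.32, limma adjusted p = 0.00452). Ces1d, a carboxylesterase that acts on lipids, read 13781, 11724, 22851 and 21648 against 4759, 7067 and 3543 (log2 change -1.77, SE 0.27, limma adjusted p = 0.00478), and Efnb3, an ephrin ligand, fell by 1.89 on the log2 scale (adjusted p = 0.00524). Sun3 stood at -2.31 (adjusted p = 0.0125) and Lingo3 at -1.70 (adjusted p = 0.00304).

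In 3 of the largest falls the arrays of 1 group were uneven. Fgf1, a fibroblast growth factor, read 23622, 15101, 28698 and 15466 against 2563, 13655 and 2202, so transgenic replicate 14 lay just under the lowest control (log2 change -2.22, SE 0.54, limma adjusted p = 0.0254). Without early control 1 or 3 the call of Fgf1 ended (adjusted p = 0.068 and 0.0737), as it did without transgenic replicate 13 (0.104) or 15 (0.106). Ctla4, a receptor of T cells, read 994, 1029.5, 1146 and 780.2 against 44, 390.5 and 400.2 (log2 change -2.07, SE 0.55, limma adjusted p = 0.0358); its call ended without early control 1 (0.0817), 2 (0.0528) or 3 (0.0922) or late control 10 (0.0522), and without transgenic replicate 13 its change was -1.24. Ano10, a membrane scramblase of the anoctamin family, read 15066, 6077, 30520.3 and 21532 against 3227, 3396 and 4066 (log2 change -2.13, SE 0.43, limma adjusted p = 0.0121); without transgenic replicate 13 the adjusted p was 0.0505.

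**Figure D2:**
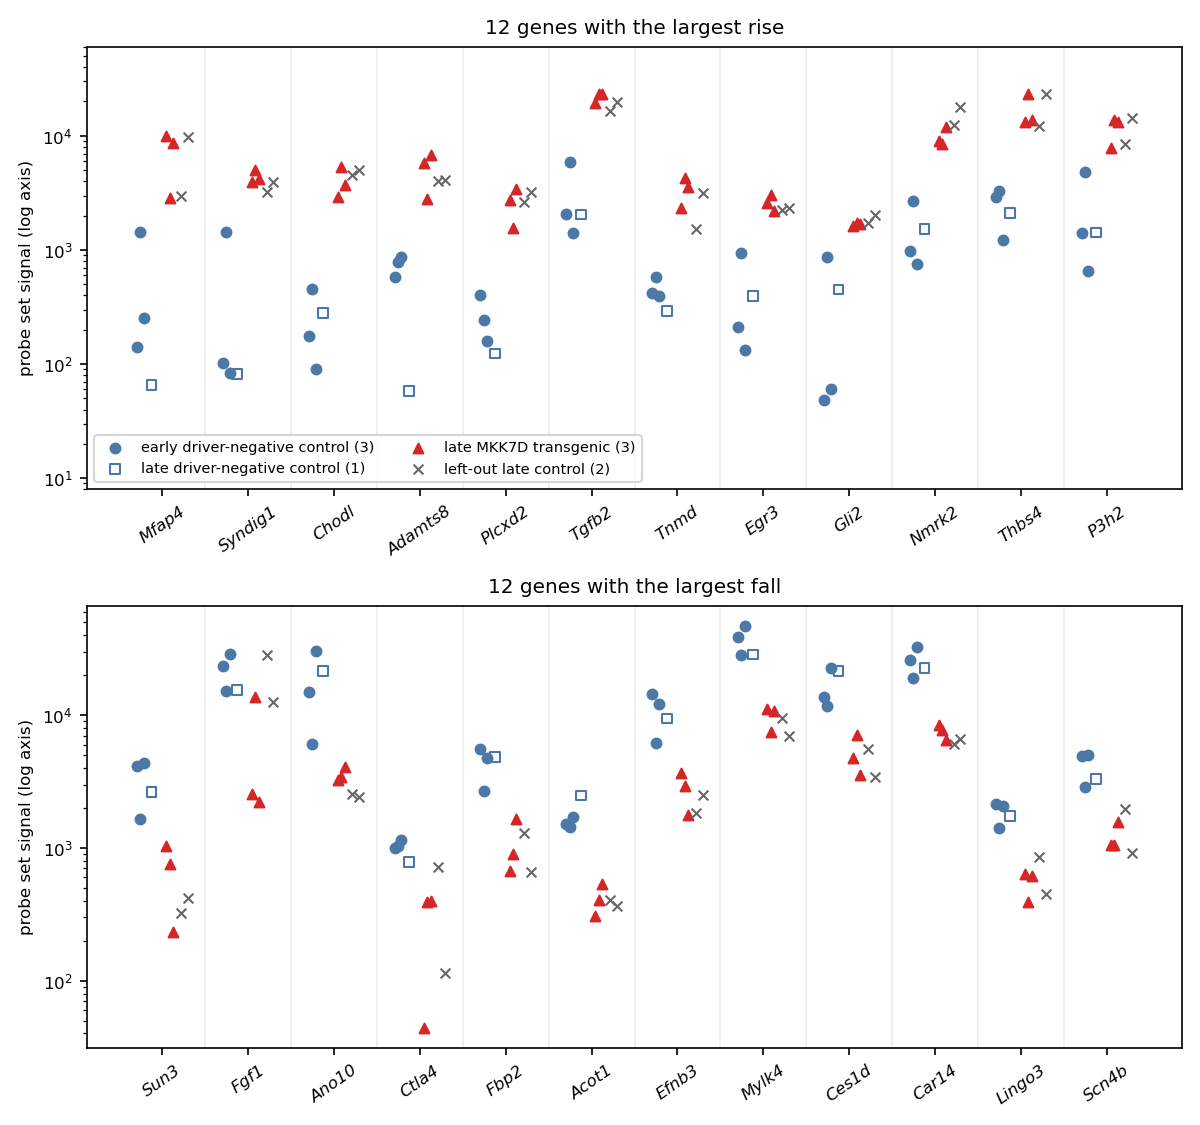
Signal of each array (log axis) for the 12 genes with the largest rise (upper) and the 12 with the largest fall (lower) among called genes whose groups do not overlap. Circles are the 3 early controls, the open square is late control 10, triangles are the 3 late MKK7D transgenic arrays and crosses are the 2 left-out late controls, which mostly lie with the triangles.

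Immediate early genes moved upward as a group, and genes of the JNK arm were called at a share near that of all genes. Of 19 AP-1 and other immediate early genes tested, 15 rose and none fell, with a median of 1.19 against 0.02 over all genes. Egr3, a zinc finger factor, read 209.8, 934, 132 and 393 in controls and 2554, 3061 and 2215 in transgenic arrays (log2 change 2.88, SE 0.50, limma adjusted p = 0.00701). The Egr3 groups did not overlap, which its place among the largest rises required, and the lowest transgenic signal was above the raised early control 2. A further Egr3 probe set stood at -0.44. Fosl2, a partner of Jun in AP-1, read 3715, 5516, 3061 and 4394 against 9221, 9834 and 11234 (log2 change 1.30, SE 0.18, limma adjusted p = 0.00342). Maff and Mafk, small Maf proteins, stood at 1.32 (adjusted p = 0.00515) and 0.90 (0.00406). Ier3, a stress response gene, read 10513, 11974, 10651 and 13013 against 21025, 20626 and 18420.2, a tight 1.74-fold difference (log2 change 0.80, SE 0.10, limma adjusted p = 0.00303). Against late control 10 alone 1 of the 19 was called higher and the median was 0.91, and without transgenic replicate 14 there were 9.

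Jun, the substrate that gave JNK its name, read 13120.2, 16698, 9112 and 13393 in controls and 24179, 24679.9 and 20261 in transgenic arrays (log2 change 0.84, SE 0.18, limma adjusted p = 0.0147). Every transgenic array was above every control. The adjusted p of Jun was 0.0612 without transgenic replicate 13 and 0.0587 without replicate 14. Of the 19 JNK arm genes tested 2 were higher, Jun and Dusp8, and 1 was lower, Map3k5, with a median of -0.04. Over all genes 12.1% were called. At an unadjusted p under 0.05 by limma there were 5 of the 19, against 26.8% of all genes. Mapk8, which encodes JNK1, read 7645, 8462, 9209 and 9802 against 7991, 9117 and 8490 (log2 change -0.04, adjusted p = 0.875), with overlapping groups. Mapk9, which encodes JNK2, stood at -0.11 (adjusted p = 0.537), and Map2k4, the other kinase that activates JNK, at -0.14 (0.511). Map3k5, or ASK1, a kinase further upstream, read 6895, 6685, 6807 and 7209 against 4945, 6119 and 4923 (log2 change -0.38, SE 0.11, limma adjusted p = 0.0497); its call ended without early control 1, 2 or 3 (0.0954, 0.0521 and 0.1), without late control 10 (0.0888) and without transgenic replicate 13 (0.179) or 15 (0.171). Map2k7, the gene of MKK7, was not analysed here.

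Dusp8, a phosphatase that acts on JNK and p38, read 5460.5, 11111, 7625 and 6106 against 12911, 12879 and 12933 (log2 change 0.82, SE 0.21, limma adjusted p = 0.029), and early control 2 came close to the transgenic arrays. Its call ended without early control 1 (0.0649) or 3 (0.0632), late control 10 (0.0601) or transgenic replicate 13, 14 or 15 (0.0895, 0.0823 and 0.0928). Further Dusp8 probe sets stood at 0.37 and 0.60 and were not called (limma adjusted p = 0.446 and 0.183 with every probe set tested). The promoters of named genes were searched on both strands for the letters TGANTCA, which AP-1 binds, TGACGTCA, the cyclic AMP response element (CRE) that dimers of Jun and ATF2 can bind, and TGATGNAA, an element of the ATF4 type. Windows were the 250 bases before each start listed in RefSeq (GRCm38.p6). TGACGTCA was present for 3 of 41 named genes that rose and had a window (Dusp8, Maff and Rcan1; 7.32%), for 1 of 51 that fell (1.96%), for 289 of 10148 genes tested that had a window (2.85%) and for 478 of 27025 genes in all (1.77%). TGANTCA was present for 1 of 41 (2.44%), 3 of 51 (5.88%), 579 of 10148 (5.71%) and 2113 of 27025 (7.82%). The Dusp8 window (chr7:142095285-142095534, minus strand) is printed, chosen after the matches were seen, because it holds the CRE letters at 2 places, in capitals, beginning 107 and 63 bases before the start.
Dusp8: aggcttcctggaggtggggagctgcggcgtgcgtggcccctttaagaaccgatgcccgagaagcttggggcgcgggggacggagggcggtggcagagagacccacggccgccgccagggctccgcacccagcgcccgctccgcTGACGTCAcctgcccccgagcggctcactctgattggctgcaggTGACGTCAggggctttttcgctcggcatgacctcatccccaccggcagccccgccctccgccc

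TGF-beta ligands, a receptor and binding proteins were higher. Of 25 genes of the list 11 rose and 1 fell, with a median of 0.49. Tgfb2, a ligand of the family, read 2055, 5869.8, 1422 and 2046 in controls and 19449, 23253 and 23119 in transgenic arrays, a 8.87-fold rise (log2 change 3.15, SE 0.38, limma adjusted p = 0.00246). Early control 2 was the highest control and still lay far under the lowest transgenic array. Tgfb3, a further ligand, read 2806, 5375, 3158 and 3127 against 8873, 10395 and 8866 (log2 change 1.41, SE 0.20, limma adjusted p = 0.00363), whereas Tgfb1 read 3641 to 4574 against 4937 to 5616 (adjusted p = 0.0878). Tgfbr1, the type I receptor that signals through Smad proteins, read 5276, 7608, 5287 and 6119.9 against 14143, 14972 and 15990.1 (log2 change 1.32, SE 0.14, limma adjusted p = 0.0018), and no array of one group came near the other. Ltbp3, which holds latent TGF-beta in the matrix, read 5505, 7045, 4609 and 4261 against 12082, 11819 and 12347 (log2 change 1.20, SE 0.16, limma adjusted p = 0.00304). Among the Smad genes, Smad2, Smad3 and Smad4, the intracellular carriers of the signal, stood at 0.26, 0.13 and -0.03 and none was called (adjusted p = 0.196, 0.64 and 0.889). The member that fell was Bmp6, a bone morphogenetic protein, at -0.71 (adjusted p = 0.00619). Without transgenic replicate 13, 7 of the 25 were higher, and against late control 10 alone 5; against that array Tgfb2 stood at 3.40 (adjusted p = 0.0231).

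Matrix genes rose widely. Of 31 fibrillar, matricellular and matrix-modifying genes tested 21 rose and none fell, and the median was 1.14. Against late control 10 alone 15 rose, with a median of 1.44. Thbs4, a thrombospondin of muscle and tendon, read 2939, 3272, 1216 and 2118 in controls and 13121, 23394 and 13801 in transgenic arrays (log2 change 2.84, SE 0.32, limma adjusted p = 0.00222). Thbs1, a thrombospondin that can activate TGF-beta, read 895, 2240, 1185 and 1134 against 6960.4, 4662 and 6342 (log2 change 2.17, SE 0.28, limma adjusted p = 0.00265). Postn, periostin, a matricellular protein made by activated fibroblasts, read 18972, 22120.2, 10003 and 10322 against 49854, 54511 and 53423 (log2 change 1.86, SE 0.26, limma adjusted p = 0.00342). Thbs4, Thbs1 and Postn separated the groups fully, with the transgenic arrays of Postn within a narrow range. Ltbp2, a microfibril protein, read 1397, 1492, 1009 and 685 against 3901, 4044 and 4699 (log2 change 1.91, SE 0.24, limma adjusted p = 0.00273). Mfap5, another microfibril protein and a fibroblast marker, read 7237, 13578, 7064 and 6680.2 against 23572, 20993 and 26931 (log2 change 1.52, SE 0.22, limma adjusted p = 0.00403). Of the collagen I genes Col1a1 stood at 1.74, adjusted p = 0.006, and Col1a2 at 1.14, adjusted p = 0.00841. Tenascin C and Comp read 1236, 635, 492 and 144 against 1576, 1837 and 1353 (adjusted p = 0.0795) and 1437, 2359.7, 2326 and 1523 against 9514, 1896 and 12329 (0.0675), with overlap in Comp alone.

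Among 18 matrix proteases and inhibitors 4 were higher and none lower, with a median of 0.21. Mmp23, a metalloproteinase, read 1074, 2510.1, 2359 and 829.9 against 5927, 7765 and 4737 (log2 change 1.96, SE 0.37, limma adjusted p = 0.00889). Mmp2, a gelatinase, read 16271, 22509, 14029 and 11698 against 31118, 27906 and 26869.5 (log2 change 0.87, SE 0.19, limma adjusted p = 0.0159); its adjusted p was 0.0683, 0.0511 and 0.0508 without transgenic replicate 13, 14 or 15. Mmp14, a membrane-bound protease that activates Mmp2, stood at 0.71, adjusted p = 0.0154, with 0.0696 and 0.0658 without replicate 13 or 15. Timp1, a metalloproteinase inhibitor, read 2225, 1742, 712 and 1064 against 3522, 3007 and 3357 (log2 change 1.30, SE 0.32, limma adjusted p = 0.028). The call of Timp1 ended without late control 10 (0.058) or transgenic replicate 13 (0.0967), 14 (0.0679) or 15 (0.0928). Cd44, the receptor for hyaluronan, read 1343, 2354, 1065 and 2802 against 7044, 7233 and 8994 (log2 change 2.11, SE 0.30, limma adjusted p = 0.00344) and was the 1 gene called of 8 in its list. Of 16 basement membrane genes 5 were higher and 1 lower: Col4a1, a chain of collagen IV, read 41017, 36979.8, 31941 and 32791 against 61868, 57757 and 57444 (log2 change 0.73, SE 0.10, limma adjusted p = 0.00342), Col15a1 read 7679, 10221, 6721 and 7492 against 21928, 18498 and 16782 (log2 change 1.25, SE 0.15, limma adjusted p = 0.00246), and the laminin chain gene Lama5 stood at -0.71 (adjusted p = 0.0142, and 0.0587 without transgenic replicate 15). Without early control 1 or transgenic replicate 13, 14 or 15 the basement membrane genes called higher were 3, 2, 3 and 2.

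**Figure D3:**
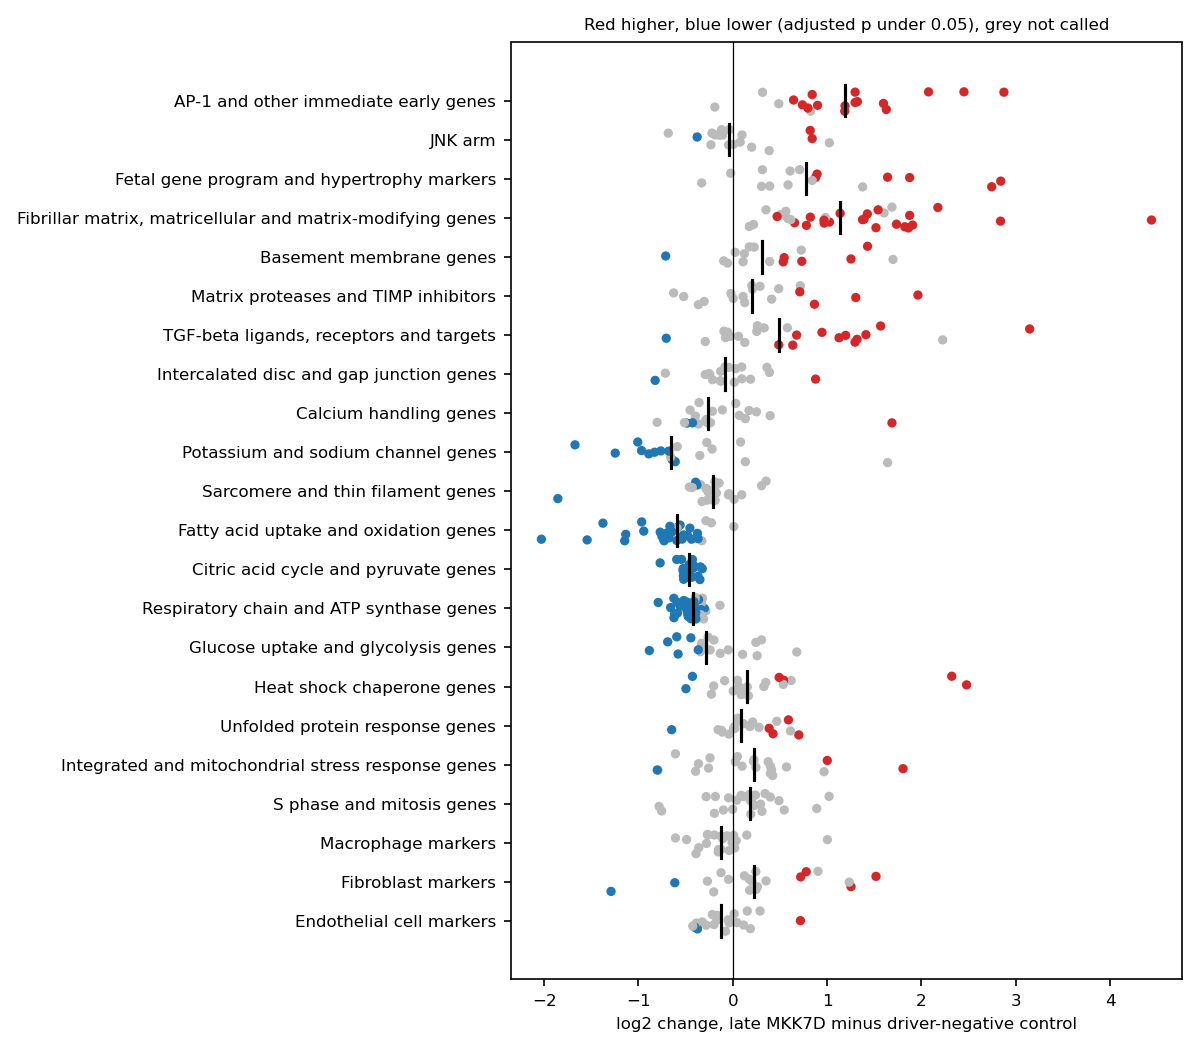
Log2 change of every tested member (x axis, late MKK7D minus driver-negative controls) for 22 gene lists (y axis), red where called higher, blue where called lower and grey where not called; the black bar is the median. Immediate early, matrix and TGF-beta members lie to the right, and channel, fatty acid, citric acid cycle and respiratory chain members to the left.

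The fetal gene program was raised in part, and its classic members did not pass the test. Of 16 members 6 rose and none fell, with a median of 0.78. Nmrk2, a muscle kinase of the NAD salvage route, read 987, 2672, 756 and 1528 in controls and 8919, 8529 and 11954 in transgenic arrays (log2 change 2.84, SE 0.35, limma adjusted p = 0.00247). Xirp1, an actin-binding protein of the intercalated disc, read 21166, 26600.2, 21692 and 18568 against 40334, 43428 and 36906 (log2 change 0.88, SE 0.12, limma adjusted p = 0.00342), and Actn1 stood at 0.89, adjusted p = 0.00478. Rcan1, a calcineurin regulator induced by calcineurin itself, read 17721, 25749, 11925 and 11860 against 49619, 50446 and 49350.5 (log2 change 1.64, SE 0.24, limma adjusted p = 0.00363). The transgenic arrays of Rcan1 lay within a few per cent of each other and far above the controls.

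Nppa, the gene of atrial natriuretic peptide, read 78386, 141435, 71340.5 and 60798 against 118658, 143234 and 120522 (log2 change 0.61, adjusted p = 0.133), and Nppb, of the B-type peptide, 61199, 85697, 38053 and 52812 against 89785, 108414 and 83152 (0.71, adjusted p = 0.0697). Myh7, the slow myosin heavy chain of fetal and failing heart, read 49058, 148764, 24839.9 and 45278 against 134246, 155182 and 129241 (1.38, adjusted p = 0.0811). Acta1, skeletal alpha actin, read 97413, 118509, 57928 and 23987 against 112300, 121369.9 and 107435 (0.84, adjusted p = 0.252). In all 4 genes early control 2 lay within the transgenic range, while early control 3 and late control 10 lay below it. Without early control 2, 11 of the 16 members were called higher, and without early controls 1 and 2, 12. Acta1 stood at 2.24 against late control 10 alone (adjusted p = 0.0159) and at 0.38 against the 3 early controls alone (adjusted p = 0.322), so late control 10 decided its size. Nppa stood at 1.06 and 0.46 in these fits (adjusted p = 0.111 and 0.241).

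The Rcan1 window before the more downstream of its listed starts (chr16:92400079-92400328, minus strand) is printed because it holds both searched elements of Jun-containing dimers. In capitals are TGACGTCA, beginning 175 bases before the start, and TGACTCA, an AP-1 match, beginning 110 bases before it.
Rcan1: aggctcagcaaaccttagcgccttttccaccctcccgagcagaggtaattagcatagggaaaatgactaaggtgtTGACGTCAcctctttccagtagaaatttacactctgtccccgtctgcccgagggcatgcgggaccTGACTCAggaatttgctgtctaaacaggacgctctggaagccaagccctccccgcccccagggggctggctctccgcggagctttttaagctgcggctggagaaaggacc

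Few skeletal muscle markers could be followed in heart. Of 5 tested 1 rose, Mybpc2, and 1 fell, Ckm, the muscle creatine kinase (-0.42; a further probe set stood at 0.20). The call of Ckm ended without early control 3 (0.0568), late control 10 (0.0846) or transgenic replicate 13, 14 or 15 (0.123, 0.0715 and 0.17). Casq1, the skeletal calsequestrin, read 18868, 37267, 14071 and 7835 in controls and 51304, 54526 and 55815 in transgenic arrays (log2 change 1.69, SE 0.40, limma adjusted p = 0.0228). Its call ended without early control 3 (0.0643) or transgenic replicate 13 (0.0689), 14 (0.0687) or 15 (0.082). Mybpc2, the fast myosin binding protein C, read 9437, 42092, 4079 and 4298 against 46015, 53757 and 43024 (log2 change 2.37, SE 0.66, limma adjusted p = 0.0444), with early control 2 just under the lowest transgenic array. The adjusted p of Mybpc2 was 0.0922, 0.11 and 0.0857 without early control 1 or 3 or late control 10, and 0.117, 0.122 and 0.113 without transgenic replicate 13, 14 or 15. Atp2a1, the fast-fibre calcium pump, read 335 to 1106 against 266 to 785, and Myl1, a fast light chain, 9705 to 37162 against 21402 to 64001, with overlap in both.

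Ion channel genes were lower. Of 18 potassium and sodium channel genes tested 10 fell and none rose, and the median was -0.65. Scn4b, a beta subunit of the sodium channel, read 4896, 2865, 4994 and 3313 in controls and 1044, 1060.3 and 1570.1 in transgenic arrays (log2 change -1.67, SE 0.23, limma adjusted p = 0.00339). Kcnv2, a modifier subunit of potassium channels, read 1930.4, 1653, 1993 and 1615 against 766, 598 and 870.5 (log2 change -1.25, SE 0.18, limma adjusted p = 0.00363). Abcc9, the sulphonylurea receptor of ATP-sensitive potassium channels, read 46908, 37378, 51691 and 54413 against 27073, 28455 and 24232 (log2 change -0.83, SE 0.13, limma adjusted p = 0.005). The groups did not overlap in these 3 genes. Kcnj3, an inward rectifier opened by acetylcholine, stood at -0.76, adjusted p = 0.00881, and Kcnip2, a subunit of the transient outward current channel, at -0.97, adjusted p = 0.00948. Against late control 10 alone 1 of the 18 was lower, with a median of -0.80.

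Few calcium handling, intercalated disc and sarcomere genes were called, at shares near the 12.1% of all genes. Of 21 calcium genes 1 was higher (Casq1) and 2 lower, of 19 disc and gap junction genes 1 higher (Xirp1) and 1 lower, and of 24 sarcomere genes 3 lower, with medians of -0.27, -0.08 and -0.21. At an unadjusted p under 0.05 there were 10 of the 21, 6 of the 19 and 13 of the 24, against 26.8% of all genes. Per array, the calcium list's median relative to the control mean was -0.24 to -0.16 in transgenic arrays and -0.07 to 0.14 in controls, with no overlap. Gja1, the gene of connexin 43, the main gap junction protein of the ventricle, read 58834, 55906, 62765 and 66014 in controls and 51457, 61497 and 53898 in transgenic arrays (log2 change -0.13, adjusted p = 0.421), and under quantile normalization it stood at 0.08. Its groups overlapped. Dsg2, a desmosomal cadherin, read 9873, 8882, 11126 and 15547 against 5570.3, 6590.4 and 6683 (log2 change -0.82, SE 0.18, limma adjusted p = 0.0152); without transgenic replicate 13 the adjusted p was 0.0679. Ryr2, the calcium release channel, read 59372, 62964, 80877 and 63932 against 46009, 53198 and 43281 (log2 change -0.49, SE 0.12, limma adjusted p = 0.0275); its call ended without transgenic replicate 13 (0.102) or 15 (0.12). Cacna1c, the L-type calcium channel, stood at -0.43, adjusted p = 0.0276, and its call ended without early control 3 (0.0624), late control 10 (0.0556) or transgenic replicate 13 (0.116) or 15 (0.114). Atp2a2, the calcium pump of the reticulum, read 117647 to 149246 against 91758 to 116738 (adjusted p = 0.0762).

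Fuel oxidation genes were lower together. Of 31 fatty acid uptake and oxidation genes 26 fell and none rose, with a median of -0.59. Eci1, an isomerase of beta-oxidation, read 57958, 43943, 65644 and 53597 in controls and 25654, 22484 and 26166 in transgenic arrays (log2 change -1.15, SE 0.13, limma adjusted p = 0.00222). Acaa2, the mitochondrial thiolase, read 65708, 51949, 84111 and 66566 against 31130.1, 30528 and 28687 (log2 change -1.13, SE 0.14, limma adjusted p = 0.00246). Cpt2, which releases acyl-CoA inside the mitochondrion, read 34619, 32208, 43415 and 38351 against 20465, 19468 and 17706 (log2 change -0.94, SE 0.11, limma adjusted p = 0.00246). The highest transgenic array was under the lowest control in these 3 genes, by a clear gap. A further Cpt2 probe set stood at -0.07, whereas further Acaa2 probe sets stood at -1.21 and -1.14. The regulators Ppara and Ppargc1a stood at -0.73, adjusted p = 0.012 (0.0517 without transgenic replicate 15), and -0.69, adjusted p = 0.00478. Cpt1a, the outer membrane form, read 6046 to 10908 against 6801 to 8808 with overlap (adjusted p = 0.981). Dgat2, which makes triglyceride, read 53426, 52844, 69769 and 51667 against 18022, 24429 and 24238 (log2 change -1.36, SE 0.14, limma adjusted p = 0.0018). Klf15, a regulator of amino acid and lipid use, stood at -0.66, adjusted p = 0.0127 (0.0617 without transgenic replicate 15).

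All 22 citric acid cycle and pyruvate genes tested fell, with a median of -0.46, and 32 of 42 respiratory chain and ATP synthase genes fell, with a median of -0.42; none of either rose. Dld, a subunit shared by the pyruvate and oxoglutarate dehydrogenases, read 41209, 40871, 43061 and 38884 against 28375, 25612 and 27490.5 (log2 change -0.59, SE 0.08, limma adjusted p = 0.00339). Sdhd, a membrane anchor of complex II, read 78883, 71094, 84379.7 and 78097 against 56302, 55343 and 51541 (log2 change -0.52, SE 0.09, limma adjusted p = 0.00584). A further Sdhd probe set stood at -0.06. Ndufs4, a subunit of complex I, read 46330.3, 41463, 52761 and 45969 against 29911, 21710.2 and 29807 (log2 change -0.79, SE 0.13, limma adjusted p = 0.00596). Cox7a1, the muscle form of a complex IV subunit, stood at -0.62, adjusted p = 0.00622, and Uqcrfs1, the iron-sulphur protein of complex III, at -0.59, adjusted p = 0.00584. Slc2a4, the insulin-responsive glucose carrier GLUT4, read 50086, 46434, 54978 and 52651 against 26366, 32612 and 24411 (log2 change -0.88, SE 0.11, limma adjusted p = 0.00265) and was among the 6 of 20 glucose genes that fell; none rose, and the list's median was -0.28. Fewer muscle cells in the sample and less RNA per muscle cell cannot be told apart in whole ventricle.

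Several measures moved with these mitochondrial lists. The summed signal of 15 cardiomyocyte markers was 1330358 to 1664328 in controls and 1097733 to 1242601 in transgenic arrays, and the share of signal in the 100 brightest probe sets was lower in transgenic arrays, as given above. Under quantile normalization 11 of the 22 citric acid cycle genes (median -0.24), 13 of the 42 respiratory chain genes (median -0.16), 22 of the 31 fatty acid genes (median -0.47) and 4 of the 20 glucose genes (median -0.10) were lower. Against late control 10 alone the counts were 1, 0, 11 and 1, with medians of -0.48, -0.42, -0.67 and -0.23. Without transgenic replicate 13, 14 or 15 there were 6, 12 and 6 citric acid cycle genes and 12, 16 and 8 respiratory chain genes called lower, and without late control 10 there were 20 of the latter. In the fit over 36 arrays 4 citric acid cycle, 1 respiratory chain, 5 fatty acid, 2 glucose and 2 channel genes were lower, and 7 immediate early, 10 matrix, 8 TGF-beta and 6 fetal program genes were higher. Fatty acid genes called lower were 17 without transgenic replicate 13 and 16 without replicate 15. The part of cell content and signal distribution in these falls was not tested. Early control 3 had the brightest mitochondrial and muscle transcripts of the 4 controls in the genes printed above, Dld, Sdhd, Ndufs4, Eci1, Acaa2, Cpt2 and Slc2a4.

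**Figure D4:**
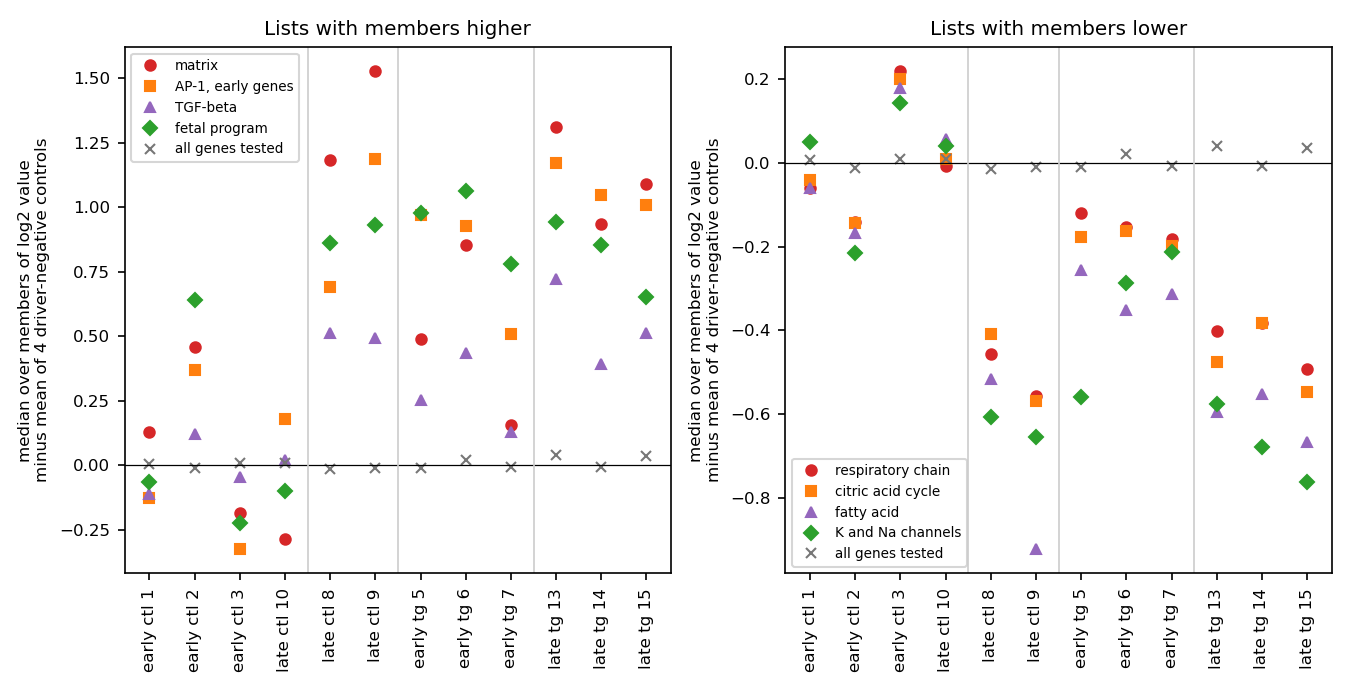
Median over list members of the log2 value minus the mean of the 4 driver-negative controls (y axis) in each of the 12 MKK7D arrays (x axis; ctl, control; tg, transgenic), for lists with members higher (left) and lower (right); crosses are all genes tested. Late transgenic arrays 13 to 15 have matrix medians of 0.94 to 1.31 against -0.29 to 0.46 in the 4 controls, and the left-out late controls 8 and 9 lie at 1.18 to 1.53.

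Chaperone and other stress genes were called in both directions, where 12.1% of all genes were called. Of 21 heat shock chaperone genes 5 rose and 2 fell, with a median of 0.15; 2 were higher in each fit without early control 1 or 3 or transgenic replicate 13, 14 or 15. Of the 21, 16 had a positive change and 12 an unadjusted p under 0.05 (26.8% of all genes). The list's median relative to the control mean was 0.10 to 0.19 in transgenic arrays and -0.05 to 0.08 in controls. Hspa1a and Hspa1b, near-identical inducible chaperones whose probe sets may share signal, read 1084, 3302, 884 and 1472 against 7023, 11114 and 7479.6 (log2 change 2.48, SE 0.38, limma adjusted p = 0.00452) and 1978, 4208, 1262 and 2544 against 10276, 12152 and 12219 (log2 change 2.32, SE 0.32, limma adjusted p = 0.00339). Neither overlapped between the groups. Hspa9 and Hspd1, chaperones inside mitochondria, stood at -0.50, adjusted p = 0.00672, and -0.43, adjusted p = 0.0116, the latter with 0.0529 without transgenic replicate 14. Of 20 unfolded protein response genes 4 were higher and 1 lower. Edem1, which clears misfolded glycoproteins, stood at 0.70, adjusted p = 0.0185 (0.0738 and 0.0703 without transgenic replicate 13 or 14), and the chaperone gene Hspa5 read 56885 to 75599 against 55035 to 63204 (adjusted p = 0.584). Herpud1, a membrane protein of the same response, stood at -0.65, adjusted p = 0.0237, and its call ended without early control 1 (0.0505) or transgenic replicate 13 (0.0597) or 15 (0.102).

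Of 22 integrated and mitochondrial stress response genes 2 rose and 1 fell, a share near the 12.1% called of all genes. At an unadjusted p under 0.05 by limma there were 10 of the 22, against 26.8% of all genes. Nupr1, a small stress-induced nuclear protein, read 590, 1227, 673 and 728 in controls and 2968, 2150.4 and 3368 in transgenic arrays (log2 change 1.81, SE 0.26, limma adjusted p = 0.0036). Slc7a5, a subunit of an amino acid carrier, read 951, 1325, 877 and 923 against 1912, 2276 and 1969 (log2 change 1.00, SE 0.18, limma adjusted p = 0.0076). Both separated the groups fully. Atf4, the factor at the centre of this response, read 13562 to 17196 against 16825 to 19088 (adjusted p = 0.178). Letters of the ATF4 type were present for 1 of 41 named genes that rose, 2 of 51 that fell, 254 of 10148 genes tested and 1056 of 27025 genes in all (3.91%). The Nupr1 window (chr7:126625471-126625720, minus strand) is the 1 among the risen genes, and is printed with the match in capitals as its reverse complement, beginning 110 bases before the start.
Nupr1: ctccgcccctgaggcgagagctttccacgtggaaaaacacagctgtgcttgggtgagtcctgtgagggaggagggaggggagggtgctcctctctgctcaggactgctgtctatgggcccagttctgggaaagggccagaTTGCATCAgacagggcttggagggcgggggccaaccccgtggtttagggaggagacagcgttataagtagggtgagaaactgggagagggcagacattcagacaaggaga

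Among antioxidant genes 1 of 20 was higher and 4 were lower. Mt1, a metallothionein, read 53618, 49699, 43919.7 and 43002 in controls and 24739, 19697 and 29675 in transgenic arrays (log2 change -0.96, SE 0.14, limma adjusted p = 0.00383), and Gpx3, a secreted glutathione peroxidase, stood at 0.55, adjusted p = 0.0125 (0.0553 and 0.0557 without transgenic replicate 13 or 14). Of 19 genes of p53 and cell death 3 rose and 4 fell. Phlda3, a p53 target that restrains Akt, read 2761, 3479, 2344 and 3192 against 7411, 5388 and 4949 (log2 change 0.99, SE 0.18, limma adjusted p = 0.00744), while Gadd45a, another stress-induced gene, read 3155, 2285, 3572 and 3111 against 1472, 1543 and 1641 (log2 change -0.93, SE 0.16, limma adjusted p = 0.00664). Both separated the groups, in opposite directions.

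No tested marker on the immune cell lists was called. None of 24 macrophage, 26 interferon, 7 MHC class II, 4 lymphocyte, 4 neutrophil or 25 S phase and mitosis genes was called by limma. Over all genes 12.1% were called. Of these lists 1, 5, 2, 0, 1 and 3 genes had an unadjusted p under 0.05 by limma, against 26.8% of all genes. The median change of the MHC class II list was -0.63. Per array its median relative to the control mean was -0.60 to -0.51 in transgenic arrays. It was -0.25, -0.39 and -0.19 in early controls 1, 2 and 3 and 0.85 in late control 10. The lymphocyte and neutrophil lists held 18 and 10 genes, most of them not tested, so the absence of calls says little about those cells. Of 16 complement and acute phase genes 1 (Osmr, the oncostatin M receptor) was higher. The call of Osmr ended without early control 1, 2 or 3 (adjusted p = 0.0982, 0.0511 and 0.114) or transgenic replicate 13 (0.107) or 15 (0.168). Late control 10 stood apart in the interferon genes, with a summed signal of 415791 against 207712 to 233150 in the early controls and 206806 to 232856 in transgenic arrays. The summed signal of the 24 macrophage markers was 100504 to 136894 in controls and 81590 to 131075 in transgenic arrays. Csf1r, the receptor that defines the lineage, read 14076 to 18581 against 10967 to 18746. Chemokine genes gave 1 call each way: Cx3cl1 read 1185, 1453, 1379 and 1875 against 2614, 3056 and 2702 (log2 change 0.92, SE 0.17, limma adjusted p = 0.00804), and Cxcl12 read 30126, 30026, 32620.2 and 27800.3 against 19632, 19896 and 20949 (log2 change -0.58, SE 0.09, limma adjusted p = 0.00403); a further Cxcl12 probe set stood at 0.24.

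Fibroblast markers moved in both directions beside the matrix genes. Of 20 tested 4 rose and 2 fell, with a median of 0.22, and their summed signal was 412750 to 549954 in controls and 526344 to 563226 in transgenic arrays, which overlap. Pdgfra and Tcf21, which define resident cardiac fibroblasts, read 6849 to 13480.5 against 9474 to 10914 and 5186 to 8485 against 5821 to 7488 (adjusted p = 0.622 and 0.705). Dpep1, a dipeptidase on the list, read 6856, 4420.5, 4749 and 4143 against 1771, 1869.9 and 2421 (log2 change -1.29, SE 0.19, limma adjusted p = 0.00378). The part of fibroblast number in the matrix rise was not tested. Of 15 cardiomyocyte markers 1 rose and 4 fell, with a median of -0.29. The 1 that rose was Tbx20, with a limma adjusted p of 0.0809 and 0.0805 without transgenic replicate 13 or 15. Of the 15, 1 had a positive change and 12 an unadjusted p under 0.05 by limma (26.8% of all genes). The groups did not overlap in 12 of the 15 (24.9% of all genes). Of 20 endothelial markers 1 rose and 2 fell, and of 15 mural cell markers 3 fell, where 12.1% of all genes were called. Both lists had 7 genes at an unadjusted p under 0.05 by limma.

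Atrial transcripts varied between arrays within each group. Myl7, the atrial light chain, read 815, 3953, 29091 and 11971 in controls and 29519.9, 501 and 6409.7 in transgenic arrays, and sarcolipin (Sln) read 1028, 2147, 16199.7 and 9808 against 28188, 797 and 5116. Both genes overlapped between the groups (adjusted p = 0.914 and 0.948). Pam, an enzyme that amidates peptide hormones and is abundant in atria, read 3023, 2902, 3538 and 2564 against 5893, 5869 and 5864 (log2 change 0.97, SE 0.12, limma adjusted p = 0.00273); it was the 1 gene called of 10 in the atrial list.

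Of the 124 named genes 116 were called, and 69 of these calls held in all 7 fits that left out 1 array. Of the 116 calls 62 ended in the fit over 36 arrays, 72 against late control 10 alone, 30 without limma's intensity trend, and all 116 with the 6 controls as labelled. The left-out late controls are given by their signals. Tgfb2 read 16444 and 19754 in late controls 8 and 9, Postn 65971 and 83768 and Acot1 407 and 367. Against the 3 late controls as labelled the log2 changes of Tgfb2, Postn and Acot1 were 1.32, 0.45 and -0.80.

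The early MKK7D transgenic arrays, which the comparison did not use, are set beside the same controls. Tgfb2 read 20384, 16494 and 16350.3 in them, Egr3 2254, 2648 and 1931 and Rcan1 45126, 43988 and 38824, all above the 4 controls. Thbs4, Chodl, Tnmd and Mmp2, chosen after their values were seen, had early signals near those of the controls: Thbs4 read 1952, 2537 and 2051, Chodl 89.2, 293 and 166, Tnmd 215, 617 and 231 and Mmp2 15914, 15444 and 13748. The difference between times was not tested here.

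**Figure D5:**
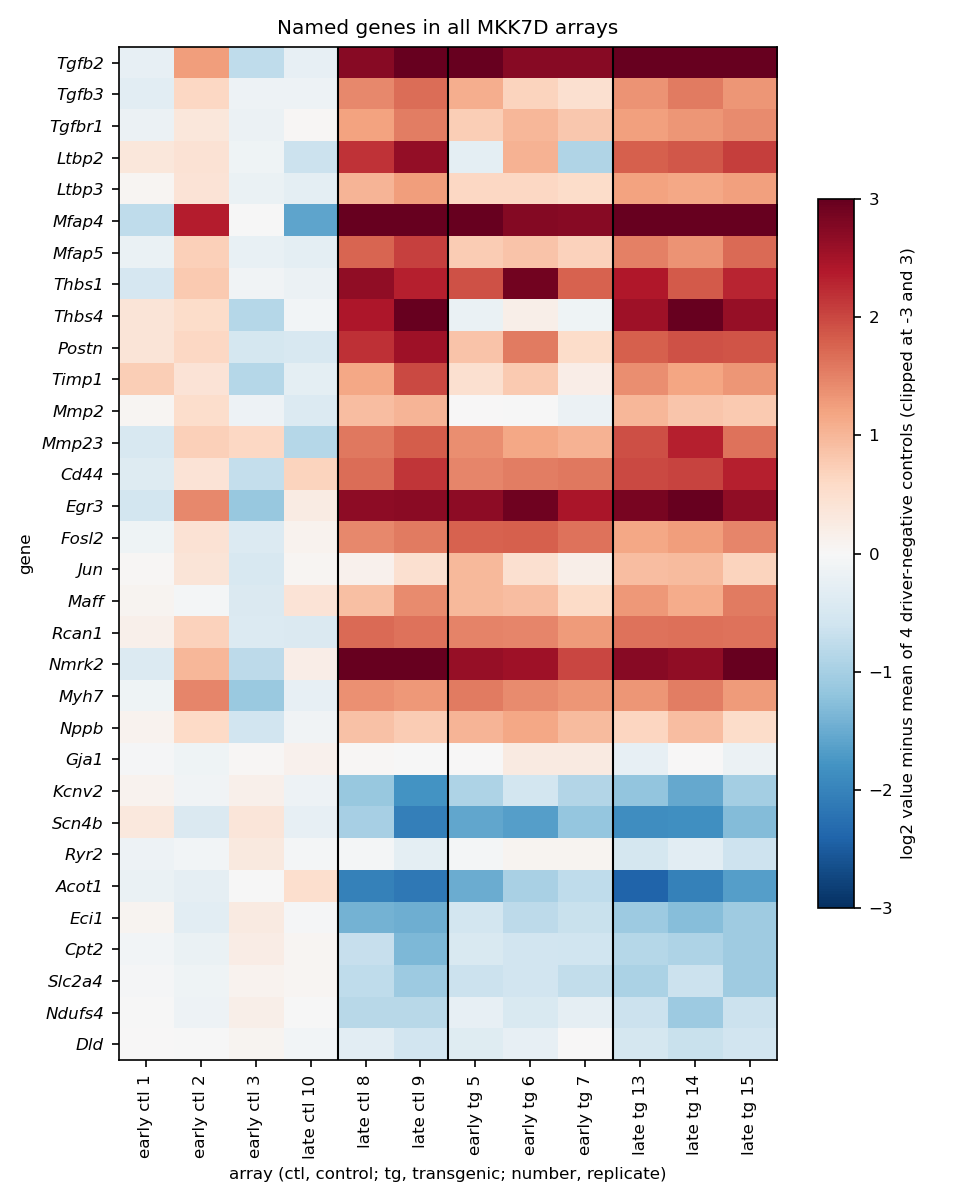
Log2 value minus the mean of the 4 driver-negative controls (colour, clipped at -3 and 3) for 32 named genes (rows) in the 12 MKK7D arrays (columns; ctl, control; tg, transgenic; number, replicate). Late controls 8 and 9 carry the colours of the late transgenic arrays in most rows, and Thbs4, Ltbp2 and Mmp2 are pale in the early transgenic arrays.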

How the data were processed

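Total RNA of left ventricles was hybridised to Affymetrix arrays, 36 in the series. The deposited values are linear signal intensity per probe set; per the submitters' processing notes the tool was MAS5 (version not given in the sources used here). The deposited intensities of each array share a trimmed mean of 2500.0 (2% off each end), a scaling that leaves array differences in how signal is spread over probe sets in place. Of 45101 probe sets 64 were controls, 34958 had 1 gene symbol (34754 updated from NCBI gene tables), 932 several and 9160 none. Here log2(signal + 32) was taken, probe sets in the upper 60% by mean over the 36 arrays were kept (mean of 8.80 or more, a signal of about 414), and the brightest of each gene was tested, 12625 genes in all. The comparison of the 3 late MKK7D transgenic arrays with the 4 controls used limma 3.58.1 in R 4.3.3 (lmFit, eBayes with an intensity trend, 5 residual degrees of freedom, two-sided) with Benjamini-Hochberg adjustment over all genes, called under 0.05. Adding 32 before the logarithm shrinks the changes of dim genes, so fold changes are those of signal + 32; the number of arrays limits the precision.

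Named genes were the 12 called genes that rose most and the 12 that fell most among those whose groups did not overlap (no clone or model names, Esr1 or sex-linked genes), up to 4 called members of each gene list with the smallest adjusted p, and Nppa, Nppb, Myh7, Acta1, Gja1, Mapk8, Mapk9, Map2k4 and Jun, called or not (Gdf15 and Fgf21 were not among the genes tested). The controls, the members and the lists were chosen with earlier results of these data known. Gene lists are described by their counts and medians, with no test of their own. Alternatives were other pseudocounts, filters, scalings, probe sets, fits, control sets and leaving out each array. Promoters were read from RefSeq (GRCm38.p6); the array files name no genome build. On data simulated for this comparison over 12625 genes, 61% of 100 genes changed by log2 1 and 90% of 100 changed by log2 2 were recovered, with 9 unchanged genes among 160 calls. The real comparison made 1522 calls, so these shares may not carry over to it. The choice of controls by driver signal was not simulated.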

Additional observations from a re-analysis of the deposited data

Results flagged for a closer look

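In 6 of the 124 named genes 1 control array lay far from the other 3. The limit used is Dixon's at 95%, which chance passes in about 1 of 20 groups. Adamts8 read 58.1 in late control 10, against 581, 782 and 863 in the early controls. Ckmt2, the mitochondrial creatine kinase, read 148274.7 in early control 3, against 119310.1 to 121535 in the other 3 controls and 86328 to 91981 in the late transgenic arrays. Dgat2 read 69768.9 in early control 3, above the other controls and further from the transgenic arrays. Early control 2 was the separate array in the other 3 genes: Hspd1 read 54484.2 there, Mfap5 13578.4 and Syndig1 1422.5, each nearer the transgenic arrays than the other controls were. The driver signal appeared in arrays outside the comparison: the Esr1 probe set read 106402 in late control 8 and 91290.9 in late control 9, above the 7288 of the highest control used.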

How the results depend on the processing

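The choice of controls moved the counts most. With all 6 controls as labelled, and with the 3 late controls as labelled, 0 genes were called, higher, lower or at least 2-fold changed, with 1178 and 686 at an unadjusted p under 0.05 by limma. Against late control replicate 10 only, 362 were called, 213 higher and 149 lower. The fit over 36 arrays gave 572 calls, 370 higher and 202 lower (64.7% higher, against 47.4%). Without the intensity trend 915 were called, 426 of them lower. With every probe set tested, 573 calls were at least 2-fold. Centring each array on its median gave 624 higher and 954 lower calls (39.5% higher), and quantile normalization 1464 calls. Leaving out 1 array at a time gave 691 to 1983 calls, 342 to 966 higher and 330 to 1017 lower, and 250 to 484 at least 2-fold. Other pseudocounts, filters, array weights and the fit over 10 arrays gave 1283 to 2025 calls. The cause of these shifts was not tested, except that leaving out arrays and a single control leave fewer samples.

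Some directions turned: Gja1 stood at 0.078 under quantile normalization, and Mapk8 at 0.018 against the early controls only (the same fit as without late control 10) and 0.0092 without transgenic replicate 13, within -0.10 to 0.018 over the fits that left out 1 array. Against the 3 late controls as labelled Gstt1 stood at 0.062, Herpud1 at 0.036, Mmp14 at -0.051, Osmr at -0.047 and Trim54 at 0.11. Without early controls 1 and 2 together, an alternative chosen after seeing the data, 1680 genes were called. No paired analysis was possible because the groups compared share no replicate number. With 3 and 4 arrays some changes of 2-fold size were missed in simulated data, which did not include the choice of controls by driver signal.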

Other observations

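The genes here were chosen after their values were seen, and their values stand for no group. Among enzymes of NAD, Nmnat1, which makes NAD in the nucleus, read 5619.6, 6079, 5233 and 4884 in controls and 1946, 2253 and 2519.8 in transgenic arrays (log2 change -1.27, SE 0.13, limma adjusted p = 0.00174). Nampt, the first enzyme of the salvage route from nicotinamide, read 25524, 24287, 33642 and 24872 against 13374, 14529 and 12749 (log2 change -0.99, SE 0.12, limma adjusted p = 0.00254), and Sirt3, a mitochondrial deacylase that uses NAD, stood at -0.72 (adjusted p = 0.00501). In heme synthesis Alas1, the rate-limiting enzyme, read 34783, 24451, 28039 and 21438 against 12230.1, 11709 and 12754 (log2 change -1.13, SE 0.15, limma adjusted p = 0.00299), and Alad, the next enzyme, 20697, 16529, 21625 and 10957 against 7757, 7693 and 3217 (log2 change -1.54, SE 0.32, limma adjusted p = 0.0139). Dbt, a subunit of the dehydrogenase of branched-chain keto acids, stood at -0.76 (adjusted p = 0.00814), and Bdh1, an enzyme of ketone use, at -0.57 (0.0101). The calls of these genes held in all 7 fits that left out 1 array.

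Single genes that rose, also picked by their values, included Hbegf, Dio2, Cilp, Meox1, Ryr3 and Klhl41. Hbegf, a ligand of the EGF receptor, read 7491, 18712, 5557 and 6251 in controls and 35772, 41022 and 34047 in transgenic arrays (log2 change 2.14, SE 0.34, limma adjusted p = 0.00555). Dio2, which activates thyroid hormone, read 549.7, 1638, 653 and 804 against 3302, 4013 and 7689.8 (log2 change 2.45, SE 0.37, limma adjusted p = 0.00456). Cilp, a matrix protein of cartilage and fibrotic heart, read 5199.5, 7352, 2382 and 2065 against 18338, 25632 and 20484 (log2 change 2.51, SE 0.38, limma adjusted p = 0.00456), and Meox1, a homeobox factor of activated fibroblasts, 3072, 6451, 2164 and 4241 against 21101, 18687 and 19123 (log2 change 2.41, SE 0.29, limma adjusted p = 0.00246). Ryr3, a calcium release channel of low level in adult heart, read 644, 968, 616 and 602 against 1876, 2637 and 3435 (log2 change 1.84, SE 0.24, limma adjusted p = 0.00299), and Klhl41, a protein of skeletal sarcomeres, stood at 2.07 (adjusted p = 0.00842). The early MKK7D transgenic arrays read 429, 601 and 676 for Ryr3, 8624, 8641 and 4933 for Cilp and 37789, 26217 and 25648 for Hbegf.

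The clock list's median relative to the control mean was -0.24, -0.09 and -0.05 in early controls 1, 2 and 3. In late control 10 it was 0.26, and in late controls 8 and 9 -0.38 and -0.05. It was 0.15 to 0.16 in late transgenic arrays and -0.10 to 0.17 in early ones. By the list's summed signal early controls 1, 2 and 3 lay lowest of the 12 MKK7D arrays, at 101129, 106896 and 115116. The other arrays read 122616 to 193682. Single members also differed between arrays. Bhlhe40, a clock repressor, read 5809, 6627, 6164 and 20522 in the 4 controls, 18507, 18833 and 18892 in the late transgenic arrays, 23799 and 23118 in late controls 8 and 9 and 18366, 23193 and 21661 in the early transgenic arrays. Nr1d1, or REV-ERB alpha, read 2601, 1807, 1489 and 8750.1 against 7489, 8908 and 8263, and Dbp, a clock output factor, 9549, 9211, 12031 and 43461 against 21597, 27914 and 20306. None of the 17 clock genes tested was called by limma, and 3 had an unadjusted p under 0.05. Of the MHC class II genes, Cd74, the invariant chain, read 8561, 8481, 12102 and 27513 in controls and 6222, 4657 and 7071 in transgenic arrays, highest in late control 10 (adjusted p = 0.0817).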
